A study of Mus musculus with 19 samples.

Results

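The WNT gene family of the mouse ovary was followed from 3 to 12 months of age. Its members are the WNT ligands (Wnt), their Frizzled receptors (Fzd), the R-spondins (Rspo), the secreted Frizzled-related proteins (Sfrp) and the Dickkopf proteins (Dkk), and they were taken by gene symbol from a table of 36172 genes. The symbols gave 41 genes, of which 29 were expressed, meaning a mean of at least 1 CPM (counts scaled to library size) over all libraries. The expressed genes were 12 of 19 WNT ligands, 9 of 10 Frizzled receptors, 3 of 4 R-spondins, 3 of 4 secreted Frizzled-related proteins and 2 of 4 Dickkopf proteins.

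Total RNA of ovaries from female mice of the inbred strain C57BL/6 was sequenced. The youngest group, of 3 months, the 6 month group and the 9 month group hold 5 libraries each and the 12 month group 4, and the labels give no genotype other than the strain and no treatment at any age. The labels do not say whether a library came from a single mouse, so p-values reflect how far libraries of an age differ, for technical reasons or others. Neither the stage of the oestrous cycle nor a batch is given. Library numbers in the labels follow age, so handling order and age cannot be told apart.

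WNT ligands are secreted lipid-modified proteins that bind Frizzled receptors. With the co-receptors LRP5 and LRP6 they stabilise beta-catenin, which acts with TCF/LEF factors on target genes, and through other co-receptors they act on cell polarity and calcium. R-spondins strengthen the signal by keeping Frizzled receptors on the cell surface, secreted Frizzled-related proteins bind WNT ligands, and most Dickkopf proteins block the LRP co-receptors. In the mouse, Wnt4 and Rspo1 are needed for the ovary to form as an ovary, and the adult ovary uses WNT signals in follicles, corpora lutea and the surface epithelium.

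The libraries hold between 10851519 and 14302207 estimated counts each. The biological coefficient of variation (the spread between libraries beyond counting noise) was 13.5% in ovaries of 3 months, 11.4% in those of 6 months, 22.6% in those of 9 months and 23.7% in those of 12 months, so the older groups were less even. All libraries held the granulosa transcripts Foxl2, at 83.7 to 188 CPM, and Inha, at 496 to 1493 CPM, as an ovary does. They also held oviduct transcripts, with 2191 to 6929 CPM summed over the 15 oviduct epithelium markers. Most of that sum was Ovgp1, an oviduct glycoprotein, at 1625 to 6151 CPM, while the marker Cdhr4 was listed at 0 in every library. Also at 0 in every library were the markers Acta2 and Muc16 and the pathway genes Amer1 and Amer2. Acta2 was at 0 although Tagln, another smooth muscle marker, ran from 421 to 1151 CPM. Why these genes were at 0 was not tested, and none of them is counted among the genes tested. Cr2, a gene of the lymphocyte and lymph node marker list, was above 5 CPM in 3 libraries. These were replicates 1 and 2 at 9 months, with 6.15 and 10.7 CPM, and replicate 2 at 12 months, with 12.5 CPM. The other libraries held at most 0.84 CPM, and those 3 are the libraries with Cr2 named below.

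The promoter sequences of Wnt6, Wnt16 and Wnt10b are shown, taken from the RefSeq promoter table (build GRCm38.p6), as those of the ligands on which results turn that have an entry there. Wnt6 and Wnt16 are the ligands that moved furthest in opposite directions at 12 months, and Wnt10b is the ligand that followed the corpus luteum markers. The lines run 5′ to 3′ on the gene's strand, with GC boxes in capitals. Each was taken from the 250 bases before the transcription start used in that table. For Wnt16 and Wnt10b the gene model in the RefSeq gene table begins inside that window, and the bases from there on were left out, which leaves 201 and 194 bases. The gene model of Wnt6 begins far upstream of its window. Wnt6 lies at chr1:74771642-74771891 on the plus strand, Wnt16 at chr6:22287977-22288177 on the plus strand and Wnt10b at chr15:98778207-98778400 on the minus strand.
Wnt6: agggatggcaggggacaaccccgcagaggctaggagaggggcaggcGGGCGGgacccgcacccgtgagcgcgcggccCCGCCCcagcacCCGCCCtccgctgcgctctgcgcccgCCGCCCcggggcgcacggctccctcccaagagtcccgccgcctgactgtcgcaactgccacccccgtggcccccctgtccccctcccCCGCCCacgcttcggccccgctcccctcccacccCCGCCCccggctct
Wnt16: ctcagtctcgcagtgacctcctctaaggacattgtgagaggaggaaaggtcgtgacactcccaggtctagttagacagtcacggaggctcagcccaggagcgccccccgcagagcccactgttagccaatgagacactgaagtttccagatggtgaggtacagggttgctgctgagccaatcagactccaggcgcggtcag
Wnt10b: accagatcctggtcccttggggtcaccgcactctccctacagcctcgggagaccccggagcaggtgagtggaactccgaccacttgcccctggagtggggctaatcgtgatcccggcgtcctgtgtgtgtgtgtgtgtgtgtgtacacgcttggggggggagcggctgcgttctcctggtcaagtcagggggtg

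The Wnt6 stretch held 6 GC boxes (GGGCGG on either strand), and those of Wnt16 and Wnt10b held none. None of the 3 held the TCF/LEF letters CTTTGAT or the letters AAGGTCA of the steroidogenic factor SF-1, searched on both strands. Over the full 250 bases of the 17 expressed members with a promoter entry outside chromosome 18, the GC box stood in 12, against 32.7% of 32851 promoters of the same length in the table. The TCF/LEF letters stood in 1 of the 17, Wnt11, against 3.21% of all promoters, and the SF-1 letters in 0, against 4.08%. The median GC content of the 17 was 72.8%, against 52.4% for all promoters. These matches describe letters in a window and say nothing of binding.

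Per kilobase of transcript, the most abundant members were secreted modulators. Sfrp4, a WNT-binding protein known from rodent corpora lutea, led with a mean level of 140 CPM per kilobase over the 19 libraries, but its libraries ran from 22.8 to 325 CPM per kilobase. Dkk3, a divergent Dickkopf protein, followed at 69.6 CPM per kilobase, with libraries between 53.9 and 119. Wnt4 was the most abundant ligand at 47.3 CPM per kilobase, and Fzd1 the most abundant receptor at 21.6. Neighbours among the first 5 genes of the order overlapped in the range of their libraries.

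Ligands, receptors and modulators were mixed through the middle of the order. Sfrp1 had a mean level of 23.5 CPM per kilobase, Wnt2b 18.5, Wnt5a 17.5, Fzd6 16.9, Wnt6 13.5 and Wnt10b 13.3. At the low end stood Rspo2 with 2.22 CPM per kilobase, Wnt10a with 0.91 and Fzd10 with 0.70. The cut for expression fell in a gap. Just inside it were Wnt10a with a mean of 2.23 CPM and Fzd10 with 2.26 CPM, and just outside it was Sfrp5 with 0.597 CPM. The 12 genes below it were Dkk1, Dkk4, Fzd9, Rspo4, Sfrp5, Wnt1, Wnt2, Wnt3, Wnt3a, Wnt8a, Wnt8b and Wnt9b, with means from 0.0268 to 0.597 CPM.

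**Figure D1:**
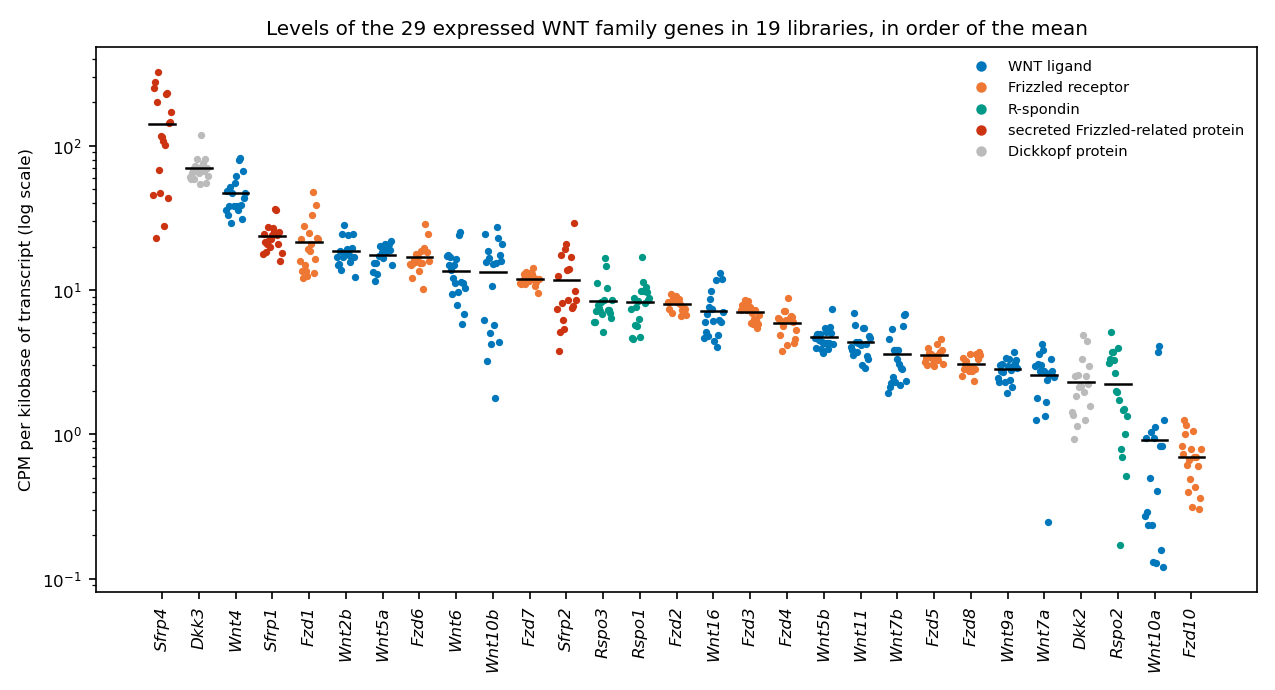
Level of each of the 29 expressed WNT family genes, in CPM per kilobase of its longest protein-coding transcript, on a log scale. Each point is 1 of the 19 libraries, the bar is the mean, and the colour is the role. Sfrp4 stands highest at a mean of 140 and spreads over 22.8 to 325, while Fzd10 stands lowest at 0.70.

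Members differed in how evenly they were expressed among ovaries of the same age. Fzd3 was the most even, with a coefficient of variation of 7.78% averaged over the 4 ages, followed by Fzd2 at 8.05% and Fzd7 at 8.36%. Wnt10a was the least even at 82.7%, followed by Sfrp4 at 66.1%, Wnt10b at 60.7% and Sfrp2 at 57.8%. Wnt10a was also second from the end in level.

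Between 12 and 3 months, 3 expressed members rose and 3 fell. Wnt5a, Fzd6 and Wnt16 were higher at 12 months, and Fzd3, Rspo2 and Wnt6 were lower. The question was which parts of the WNT system differ between the oldest and the youngest ovaries. All 29 expressed members passed the low-count filter, as did Sfrp5 and Wnt2 from below the cut, so 31 of 41 were tested. Calls were made with edgeR's quasi-likelihood test at an adjusted p under 0.05 over 15518 genes, of which 22.4% were called, 10.9% higher and 11.5% lower. The 6 of 29 members called are close to that background. The median log2 change of the expressed members was 0.15 and that of all genes tested 0.02.

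Wnt5a, the ligand best known for signalling through ROR2 without beta-catenin, was at 146, 134, 153 and 105 CPM in the 4 libraries at 12 months, against 92.7, 108, 81.2, 109 and 90.9 CPM in the 5 at 3 months. Only replicate 4 at 12 months lay within the range of 3 months. Wnt5a rose by 0.48 ± 0.10 on the log2 scale (SE; adjusted p = 0.00354, edgeR quasi-likelihood test), a 1.39-fold higher level. It kept its call whichever library was left out.

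Wnt16, a ligand of both WNT branches, was at 42.9, 19.8, 39.3 and 23.0 CPM at 12 months, against 15.4, 19.7, 16.9, 22.5 and 15.7 CPM at 3 months. Replicates 1 and 3 at 12 months were high, and replicate 2 lay within the range of 3 months. Its log2 change was 0.79 ± 0.28 (SE; adjusted p = 0.0498, edgeR). The same 2 libraries held the most oviduct transcripts of their age, with marker sums of 5928 and 4839 CPM, against 2729 and 3706 CPM in replicates 2 and 4. With the mean of the oviduct markers as a covariate, the log2 change of Wnt16 was 0.24 (adjusted p = 0.246). With that of the corpus luteum markers it was 0.68 (adjusted p = 0.0577), and with no filter on low counts 0.79 (adjusted p = 0.0657). The call was lost without any of 13 of the 19 libraries (log2 change 0.60 to 0.83). It stayed only without replicate 4 at 3 months, replicates 1, 2 or 3 at 9 months, or replicates 2 or 4 at 12 months.

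Wnt6, a ligand of epithelia, was at 12.1, 23.1, 14.1 and 21.2 CPM at 12 months, against 35.7, 36.2, 30.6, 35.1 and 28.3 CPM at 3 months. The libraries of the 2 ages did not overlap. Wnt6 had a log2 change of -0.91 ± 0.31 (SE; adjusted p = 0.0429, edgeR). Between them, the 9 month libraries were at 16.2, 19.9, 49.7, 52.6 and 23.4 CPM, so replicates 3 and 4 at 9 months stood above every 3 month library. The call at 12 months was lost with the oviduct markers as a covariate (log2 change -0.70, adjusted p = 0.152), with limma-voom (-1.04, adjusted p = 0.0521) and with no filter on low counts (-0.91, adjusted p = 0.06). It was also lost without any single library of 3 months, without replicates 2, 3 or 4 at 6 months, or without replicates 1 or 3 at 12 months (log2 change -0.96 to -0.77).

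Both Frizzled receptors that moved at 12 months are those best known for planar cell polarity in the mouse, and they moved in opposite directions. Fzd6 was at 125, 79.0, 106 and 68.8 CPM at 12 months, against 65.3, 64.3, 52.5, 66.1 and 69.6 CPM at 3 months. Replicate 4 at 12 months overlapped with 3 months, and replicates 1 and 3 were the highest. The log2 change was 0.57 ± 0.17 (SE; adjusted p = 0.0244, edgeR). It was not called without replicate 3 at 3 months or replicates 1 or 3 at 12 months (log2 change 0.41 to 0.52), nor with the oviduct markers as a covariate (0.36, adjusted p = 0.151).

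Fzd3 was at 78.3, 69.0, 74.0 and 85.7 CPM at 12 months, against 93.0, 100, 99.6, 102 and 108 CPM at 3 months, with no overlap. The log2 change was -0.39 ± 0.08 (SE; adjusted p = 0.00261, edgeR), the smallest change among the 6 genes called. It kept its call whichever library was left out. With offsets for gene length and GC content it was -0.18 (adjusted p = 0.153). The Fzd3 transcript is the longest of the expressed members at 12.7 kilobases.

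Rspo2, an R-spondin known in the mouse as a product of the oocyte, had the largest change of the family between 12 and 3 months. It was at 5, 3.37, 1.71 and 4.46 CPM at 12 months, against 10.4, 11.1, 17.2, 12.4 and 12.4 CPM at 3 months, with no overlap. Its log2 change was -1.80 ± 0.42 (SE; adjusted p = 0.00694, edgeR), which left 0.287 of the level at 3 months. The call held whichever library was left out. Fzd3, Rspo2 and Wnt6 were the 3 of 29 members whose libraries did not overlap between 12 and 3 months, against 16.5% of all genes tested.

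The other R-spondins did not pass the test at 12 months. Rspo1 had a log2 change of 0.59 ± 0.22 (SE; adjusted p = 0.0545, edgeR) and Rspo3 one of -0.06 ± 0.23 (adjusted p = 0.868). DESeq2 and limma-voom did call the rise of Rspo1. The other 9 ligands, the other 7 receptors, the 3 secreted Frizzled-related proteins and both Dickkopf proteins did not pass either. Wnt4, the most abundant ligand, averaged 197 ± 60.9 CPM in the 12 month ovaries (SD, n = 4), against 174 ± 33.2 CPM in the 3 month ovaries (SD, n = 5), and Wnt2b 60.6 ± 16.9 CPM at 12 months, against 52.6 ± 6.38 CPM at 3 months. Fzd1 was at 105 ± 39.8 CPM at 12 months and 76.6 ± 27.5 CPM at 3 months, and Fzd7 at 50.7 ± 4.93 CPM at 12 months and 52.4 ± 3.58 CPM at 3 months. Sfrp2 was at 27.8 ± 20.6 CPM at 12 months and 18.6 ± 11.4 CPM at 3 months, and Dkk2, a blocker of LRP co-receptors, at 10.4 ± 4.59 CPM at 12 months and 5.99 ± 2.22 CPM at 3 months. For each of these genes the libraries of the ages overlapped. The log2 changes of all members that did not pass lay between -0.95 for Fzd10 (adjusted p = 0.0508, edgeR) and 0.80 for Dkk2 (adjusted p = 0.123). Of these, Fzd10 was called by DESeq2 and limma-voom at 12 months, and Dkk2 by neither. With the corpus luteum markers as a covariate Dkk2 was called at 12 months. Along the linear trend with age Dkk2 changed by 0.88 ± 0.34 (SE; adjusted p = 0.0547, edgeR), which DESeq2 and limma-voom called and edgeR did not.

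A further 5 ligands and 4 receptors did not pass the test in any comparison of ages, with the means that follow. Wnt7b, a ligand of epithelia, averaged 11.1 CPM at 3 months, 10.8 CPM at 6 months, 10.1 CPM at 9 months and 18.3 CPM at 12 months, where its libraries ran from 7.93 to 23.4 CPM and so overlapped with every other age. Wnt7a, a ligand known from the female reproductive tract of the mouse, averaged 8.06, 10.5, 5.22 and 8.92 CPM at the same ages. Wnt5b averaged 10.9, 10.1, 10.9 and 13.1 CPM, Wnt9a 9.05, 8.84, 9.01 and 10.8 CPM and Wnt11 16.6, 14.4, 14.5 and 14.1 CPM. None of these 5 ligands passed along the trend either.

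Among the receptors Fzd2 averaged 29.5, 32.0, 28.4 and 26.6 CPM at 3, 6, 9 and 12 months. Fzd4, also a receptor for the non-WNT ligand Norrin, averaged 36.9, 40.6, 46.3 and 34.0 CPM. Fzd5 averaged 23.8, 22.8, 24.9 and 26.3 CPM and Fzd8 18, 18, 17.2 and 21.0 CPM. None of these 4 receptors passed the test at any age or along the trend.

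**Figure D2:**
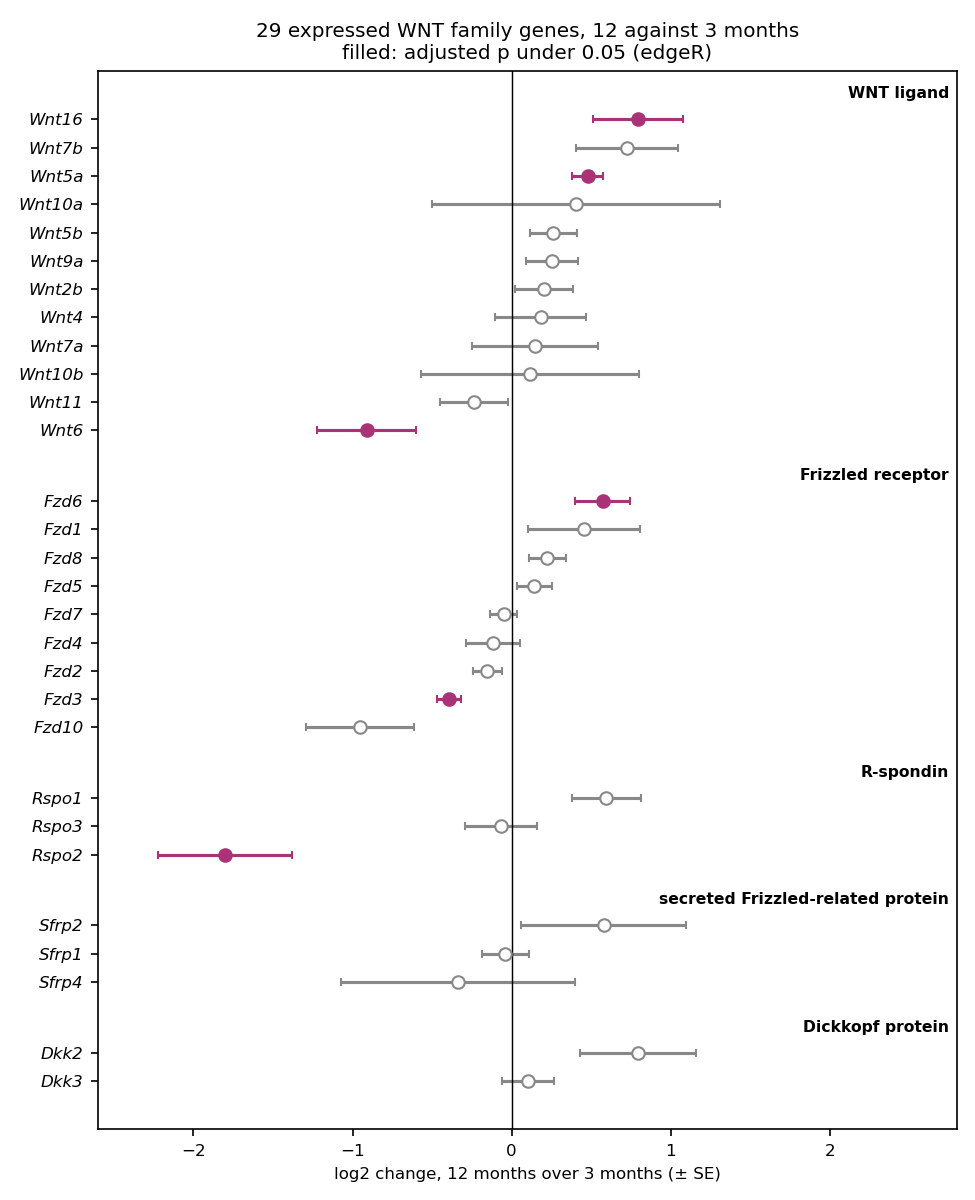
Log2 change of each expressed WNT family gene at 12 months over 3 months, with its standard error, grouped by role. Filled points passed an adjusted p of 0.05 in edgeR. Rspo2 lies furthest from 0 at -1.80, and Wnt5a, Fzd6 and Wnt16 are the filled points above 0.

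At 9 months, 4 expressed members rose and 2 fell against 3 months. The background was 25% of all genes called, 11.3% higher and 13.6% lower, and the median log2 change was 0.11 for the 29 members and 0.01 for all genes. This comparison shares its 3 month libraries with that at 12 months. Wnt5a was at 135, 145, 130, 130 and 141 CPM at 9 months, above all 5 libraries at 3 months, with a log2 change of 0.50 ± 0.09 (SE; adjusted p = 0.00105, edgeR). Rspo2 was at 5.76, 0.576, 2.66, 2.34 and 4.95 CPM at 9 months, below all libraries at 3 months, with a log2 change of -1.96 ± 0.40 (adjusted p = 0.00183). Fzd3 was at 75.1, 87.8, 74.1, 80.0 and 92.9 CPM at 9 months, just below the lowest 3 month library, with a log2 change of -0.30 ± 0.07 (adjusted p = 0.00579). It was -0.16 with offsets for length and GC content (adjusted p = 0.144). These 3 of 29 members did not overlap between 9 and 3 months, against 14.9% of all genes.

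Rspo1, the R-spondin of ovary determination, was at 17.9, 30.9, 20.8, 18.2 and 14.9 CPM at 9 months, against 13.5, 8.59, 8.40, 16 and 10.4 CPM at 3 months. Its log2 change was 0.85 ± 0.21 (SE; adjusted p = 0.00563, edgeR), and replicate 5 at 9 months lay within the range of 3 months. Rspo3 was at 26.1, 51.3, 45.0, 32.1 and 22.4 CPM at 9 months, against 18.5, 18.5, 22.0, 34.3 and 24.3 CPM at 3 months. Its log2 change was 0.59 ± 0.21 (adjusted p = 0.0469), and replicates 2 and 3 at 9 months were the high ones. The call of Rspo3 was lost without any of 11 of the 19 libraries (log2 change 0.43 to 0.64), staying only without replicate 4 at 3 months, 3 or 5 at 6 months, 1 or 5 at 9 months, or 2, 3 or 4 at 12 months. It was also lost without the 3 libraries with Cr2 (0.51, adjusted p = 0.121), with only the ages compared in the fit (0.59, adjusted p = 0.112) and with no filter on low counts (0.59, adjusted p = 0.057).

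Sfrp1, a secreted binder of WNT ligands, was at 118, 111, 159, 156 and 105 CPM at 9 months, against 77.3, 106, 93.4, 80.2 and 90.3 CPM at 3 months. Replicates 3 and 4 at 9 months were the highest. The log2 change was 0.54 ± 0.14 (SE; adjusted p = 0.00862, edgeR), and at 12 months it was -0.04 ± 0.15 (adjusted p = 0.876). Both numbers stand against the same 3 month libraries, and the difference between 12 and 9 months was not tested.

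Replicates 3 and 4 at 9 months also stood high in other members. Wnt4 was at 333 and 344 CPM in them, against 150 to 162 CPM in the other 3 libraries at 9 months. Wnt10a was at 9.20 and 10.1 CPM in them and at 0.316 to 2.05 CPM in the others, and Fzd1 at 139 and 199 CPM against 54.9 to 87.7 CPM. At 9 months against 3 months Wnt10a had the largest log2 change of the family, 2.03 ± 0.83 (SE; adjusted p = 0.0808, edgeR), which edgeR did not call and DESeq2 did. Together with Wnt6 and Sfrp1 these are 5 members that were highest in the same 2 ovary libraries, and they were picked out after their values were seen. Wnt6 and Wnt10a are neighbours on chromosome 1.

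Other cell types shifted too at 9 months. All 8 endothelial markers rose against 3 months, as did 7 of 8 macrophage and 8 of 10 smooth muscle and pericyte markers. Of fibroblast and stroma markers 5 of 9 rose and 1 fell, and 12 of 12 oocyte markers fell. Of granulosa markers 3 of 11 fell, as did 3 of 7 theca and interstitial markers, and 0 of either list rose. Of all genes tested 11.3% were higher and 13.6% lower. Further markers rose as well, 9 of 10 of lymphocytes and lymph node and 4 of 5 of liver. The summed lymphocyte and lymph node markers were 236 and 262 CPM in replicates 1 and 2 at 9 months, both libraries with Cr2. In the other libraries of that age they were 86.8 to 111 CPM. Of the ovarian surface epithelium and mesothelium 6 of 10 rose. The summed liver markers ran from 14 to 589 CPM at 9 months, highest in replicate 3, and the summed adipocyte markers from 425 to 2279 CPM, highest in replicate 1. The summed fibroblast and stroma markers ran from 4660 to 7256 CPM at 9 months and from 3593 to 4176 CPM at 3 months. In RNA of whole ovaries, more cells of a type and more RNA per cell cannot be told apart, and the part of these shifts in the changes of the WNT genes was not tested.

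Between 6 and 3 months no member passed edgeR's test, with 0.0193% of all genes called (3 genes), 0.0129% higher and 0.00644% lower. At an unadjusted p under 0.05 there were 3 of 29 members, Wnt5a, Wnt2b and Fzd10, against 1528 of 15518 genes tested. Wnt5a was at 121, 142, 120, 129 and 117 CPM at 6 months, above all 5 libraries at 3 months, the single expressed member without overlap, against 3.64% of all genes. Its log2 change was 0.39 ± 0.09 (SE; adjusted p = 0.253, edgeR), and both DESeq2 and limma-voom called it. The median log2 change was 0.06 for the members and -0.00064 for all genes.

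Along the linear trend, given as the change over 9 months, 3 members rose and 3 fell, against 29.5% of all genes called, 14.7% higher and 14.8% lower. The trend uses every library, including those of the comparisons above. Wnt5a changed by 0.48 ± 0.11 on the log2 scale (SE; adjusted p = 0.00361, edgeR), Rspo1 by 0.83 ± 0.24 (adjusted p = 0.0145) and Fzd6 by 0.49 ± 0.17 (adjusted p = 0.0317). Fzd3 changed by -0.43 ± 0.08 (adjusted p = 0.000647), Rspo2 by -2.10 ± 0.42 (adjusted p = 0.00151) and Fzd10 by -0.86 ± 0.32 (adjusted p = 0.0459). The median was 0.17 for the members and 0.03 for all genes.

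The shape of these trends was not tested, and the means by age were as follows. Mean Wnt5a was 96.4 ± 11.9 CPM at 3 months, 126 ± 10.2 CPM at 6 months, 136 ± 6.53 CPM at 9 months and 134 ± 21.2 CPM at 12 months (SD, n = 5, 5, 5 and 4). Mean Rspo1 was 11.4 ± 3.31, 11.9 ± 2.67, 20.5 ± 6.15 and 17.2 ± 1.65 CPM at the same ages. Fzd3 averaged 101 ± 5.54, 98.1 ± 6.34, 82.0 ± 8.16 and 76.7 ± 7.07 CPM.

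Fzd10, a receptor at the edge of expression, was at 2.70, 2.39, 4.09, 3.28 and 3.79 CPM at 3 months and at 2.01, 1.30, 2.17, 1.60 and 2.58 CPM at 6 months. It was at 1.03, 3.46, 2.28, 1.40 and 2.28 CPM at 9 months and at 1.95, 0.995, 1.19 and 2.57 CPM at 12 months. Its libraries overlapped at every later age with those of 3 months. The trend call of Fzd10 was lost without any of 13 of the 19 libraries (log2 change -0.93 to -0.72) without those with Cr2 (-0.76, adjusted p = 0.0618) and with no filter on low counts (-0.86, adjusted p = 0.0555). It stayed only without replicate 2 at 3 months, 2 or 4 at 6 months, 2 or 3 at 9 months, or 4 at 12 months. Fzd6 lost its trend call without replicate 3 at 3 months or replicates 1 or 3 at 12 months (0.33 to 0.45), and with the oviduct markers as a covariate (0.31, adjusted p = 0.117). Fzd3 and Rspo1 lost theirs with offsets for length and GC content (-0.18, adjusted p = 0.0878, and 0.66, adjusted p = 0.0556).

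**Figure D3:**
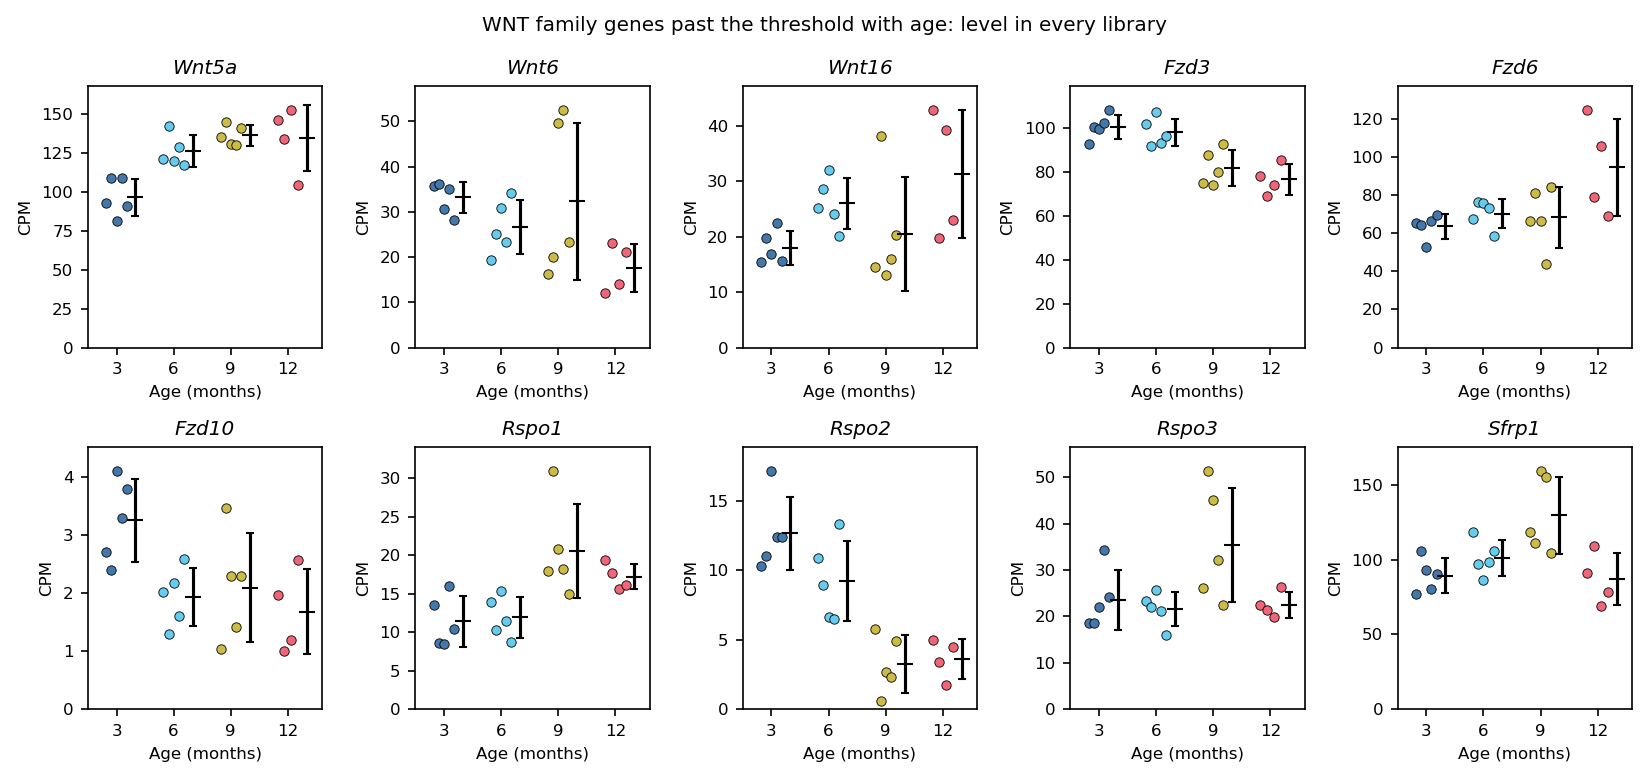
Level in CPM, on linear axes from 0, of the 10 WNT family genes past the threshold in any of the comparisons between ages or along the trend. Each point is a library at 3, 6, 9 or 12 months, with the mean and SD beside it. Rspo2 lies at or above 6.53 CPM in every library at 3 and 6 months and at or below 5.76 CPM in every library at 9 and 12 months.

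Rspo2 ran in parallel with the oocyte transcripts. At 6 months it was at 10.9, 8.95, 6.66, 6.53 and 13.3 CPM, with replicates 1 and 5 within the range of 3 months and the other 3 below it, and the change against 3 months was not called (log2 -0.45 ± 0.37, SE; adjusted p = 0.694, edgeR). The summed CPM of 12 oocyte markers ran from 322 to 508 at 3 months, 187 to 372 at 6 months, 21.4 to 144 at 9 months and 62.1 to 151 at 12 months. Of these markers 11 fell at 12 months, and Figla was listed at 0 in 4 libraries at 9 months and 1 at 12 months. Per 1000 CPM of oocyte markers, Rspo2 stood at 28.4 to 35.3 CPM at 3 months, 29.8 to 41.0 at 6 months, 26.9 to 48.8 at 9 months and 27.5 to 38.7 at 12 months. These ranges overlapped at all 4 ages.

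Beside a mean per age, Rspo2 followed the mean of the oocyte markers, with 1.21 ± 0.13 log2 units per log2 unit of the marker mean (SE; adjusted p = 1.03e-05, edgeR). This test was added after seeing the data, and 2.6% of all genes were called in it, 2.09% upward. Among the members Dkk3 was the other gene called, at -0.28 ± 0.07 (adjusted p = 0.0425). Its call was lost without any of 9 libraries (-0.31 to -0.11), replicate 4 at 3 months, 1, 2, 3 or 5 at 6 months, 1, 2 or 5 at 9 months and 4 at 12 months, and without the libraries with Cr2 (-0.09, adjusted p = 0.812). With the oocyte markers as a covariate, Rspo2 no longer passed at 12 months (0.27, adjusted p = 0.803) or at 9 months (0.54, adjusted p = 0.62), and none of the members did (3 of 29 at an unadjusted p under 0.05 at each of these ages). Oocyte markers and age moved together, and the same covariate left 37 genes of the whole table called at 12 months and 0 at 9 months.

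Wnt16 and Dkk3 followed the oviduct markers. Beside a mean per age, Wnt16 changed by 1.34 ± 0.15 log2 units per log2 unit of the marker mean (SE; adjusted p = 3.38e-05, edgeR) and Dkk3 by 0.70 ± 0.12 (adjusted p = 0.00124), while 4.41% of all genes were called, 3.81% upward. Replicate 2 at 9 months had the highest level of both genes at that age, 38.2 CPM of Wnt16 and 398 CPM of Dkk3, and the highest oviduct sum of all libraries at 6929 CPM. In the marker mean used in the test this library stood at 5.97 log2 CPM. Replicates 1 and 3 at 12 months were higher, at 6.29 and 6.14. Per 1000 CPM of oviduct markers, Wnt16 ran from 6.20 to 7.70 CPM at 3 months, 7.67 to 9.24 at 6 months, 3.32 to 5.82 at 9 months and 6.22 to 8.12 at 12 months, so that the libraries of 9 months lay below all others. Dkk3 ran from 67.6 to 98.5 CPM at 3 months, 68.1 to 83.4 at 6 months, 57.5 to 72.3 at 9 months and 46.1 to 67.5 at 12 months, where every library lay below all those of 3 months. These ratios use the marker sum, most of which was Ovgp1, whereas the test used the mean of the log2 levels. Where a gene rises less than the sum, its ratio falls. The median sum was 2526 CPM at 3 months, 3666 CPM at 9 months and 4272 CPM at 12 months. Dkk3 itself averaged 209, 260 and 225 CPM at these ages. At 9 months 1 of 14 oviduct markers tested rose against 3 months, with a median log2 change of -0.02. At 12 months 3 of 14 rose and 0 fell, against 10.9% of all genes higher. Their median log2 change at 12 months was 0.40, and all 14 changes lay above 0. Without the 3 libraries with Cr2, which include replicate 2 at 9 months, Dkk3 was no longer called (0.48, adjusted p = 0.0649, edgeR). That fit called 249 of all genes, in place of 684. The Dkk3 call held whichever single library was left out, replicate 2 at 9 months among them. How much of either transcript came from oviduct tissue was not tested.

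Sfrp4 and Wnt10b, which showed no change with age past the test, followed the corpus luteum markers instead. Sfrp4 was at 184, 1012, 1114, 92.1 and 813 CPM at 3 months and at 1314, 274, 191, 471 and 468 CPM at 6 months. It was at 437, 112, 408, 916 and 935 CPM at 9 months and at 175, 582, 593 and 688 CPM at 12 months. Ovaries of each age thus held both low and high levels. The 5 corpus luteum markers summed to 556 to 2695 CPM at 3 months, 707 to 1759 at 6 months, 810 to 1844 at 9 months and 717 to 1575 at 12 months, and none was at 0 in any library.

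Beside a mean per age, Sfrp4 changed by 1.84 ± 0.18 log2 units per log2 unit of the corpus luteum marker mean (SE; adjusted p = 4.24e-05, edgeR). Wnt10b changed by 1.70 ± 0.23 (adjusted p = 0.000949) and Dkk2 by -0.80 ± 0.12 (adjusted p = 0.00197), so Dkk2 was lower where the luteal markers were higher. In this test, also added after seeing the data, 0.864% of all genes were called, 0.677% upward and 0.187% downward. Wnt10b ran from 8.67 to 66.1 CPM at 3 months, 11.5 to 45.2 at 6 months, 4.82 to 74.0 at 9 months and 11.9 to 56.8 at 12 months. The markers were themselves uneven. In the same test 2 of the 5 markers were called as following their own mean. The slopes of the 5 ran from -0.0058 to 2.79 log2 units per log2 unit, with a median of 0.47. Akr1c18, the progesterone-degrading enzyme of regressing corpora lutea, ran from 8.29 to 1472 CPM over the libraries, while the prolactin receptor gene Prlr ran from 329 to 858 CPM. The calls of Sfrp4, Wnt10b and Dkk2 held whichever library was left out.

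**Figure D4:**
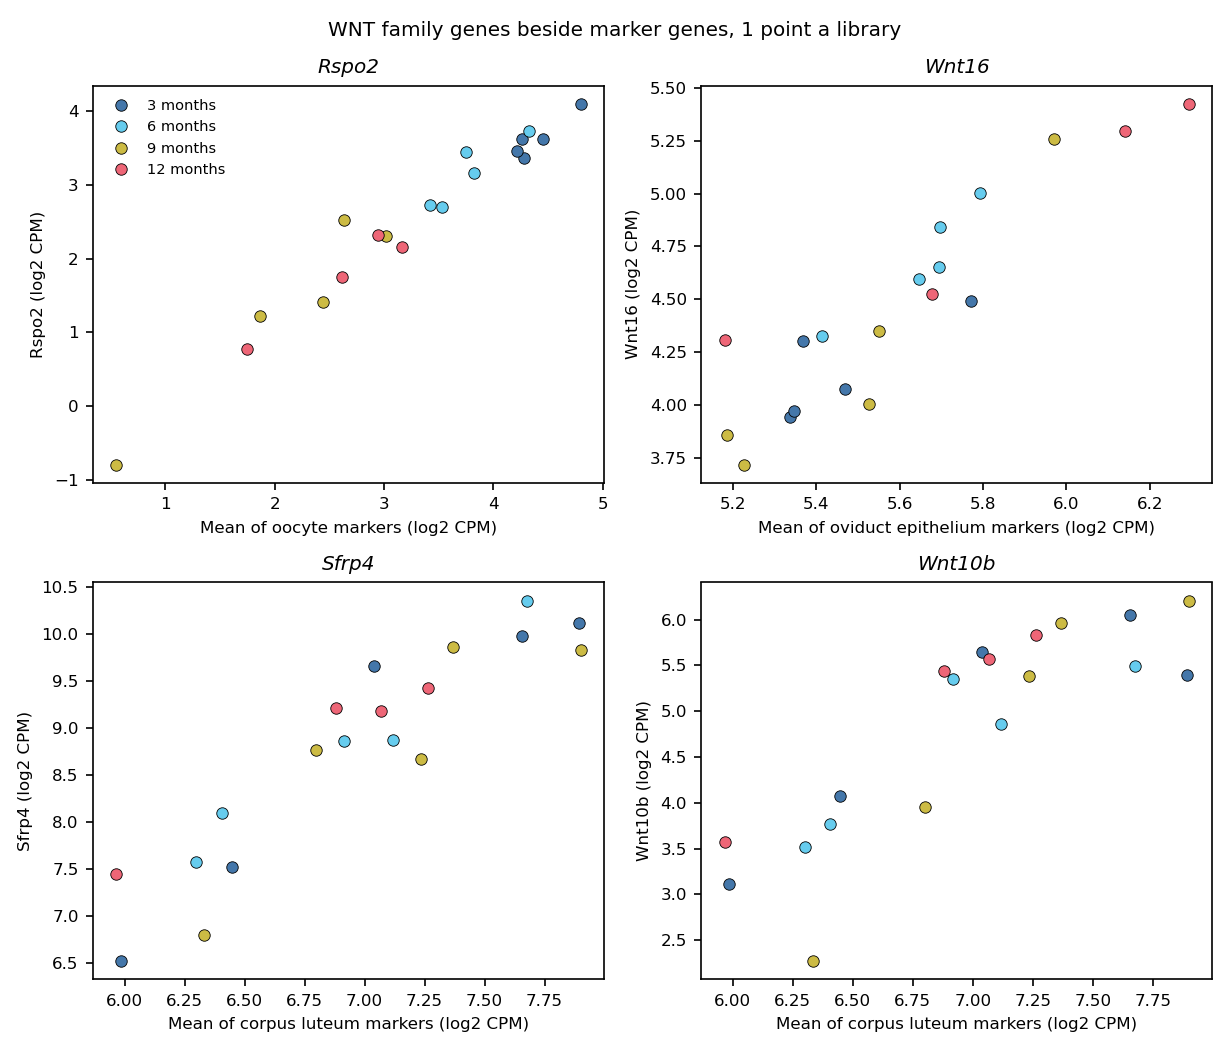
Level of Rspo2, Wnt16, Sfrp4 and Wnt10b (log2 CPM) against the mean of the oocyte, oviduct epithelium or corpus luteum markers (log2 CPM), 1 point for each of the 19 libraries, coloured by age. The points run upward in all 4 panels, and along the oocyte axis all 3 month libraries lie above all those of 9 and 12 months, while ages are mixed along the corpus luteum axis.

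The other genes of the WNT pathway were read from 7 lists, set against a background of 10.9% of all genes higher and 11.5% lower at 12 months than at 3 months. In WNT secretion 0 of 3 genes tested passed in edgeR, nor was any at an unadjusted p under 0.05. Wls, which carries WNT proteins to the cell surface, averaged 208 ± 34.8 CPM in the 12 month ovaries (SD, n = 4), against 200.1 ± 20.7 CPM in the 3 month ovaries (SD, n = 5). Porcn, the enzyme that adds their lipid, was at 14.4 ± 10.4 CPM at 12 months and 11.9 ± 8.66 CPM at 3 months.

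Among 19 co-receptors and other WNT-binding receptors 1 rose and 4 fell at 12 months. Ror2, a receptor for Wnt5a, was at 21.7 ± 5.69 CPM at 12 months and 13.3 ± 0.816 CPM at 3 months, a log2 change of 0.71 ± 0.20 (SE; adjusted p = 0.0159, edgeR). Lrp4 fell to 23.1 ± 4.10 CPM at 12 months, against 37.2 ± 3.66 CPM at 3 months (log2 change -0.69 ± 0.12, adjusted p = 0.00161). The main WNT co-receptors Lrp5 and Lrp6 changed by -0.24 ± 0.08 (adjusted p = 0.0425) and -0.19 ± 0.07 (adjusted p = 0.0464), and the glypican Gpc6 by -0.38 ± 0.14 (adjusted p = 0.0498). The R-spondin receptors Lgr4 and Lgr5 did not pass (log2 changes of -0.06 ± 0.16, adjusted p = 0.841, and 0.17 ± 0.23, adjusted p = 0.639). They, Lrp6 and Gpc6 were singled out after their values were seen. The median log2 change of the list was -0.06.

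Of 10 other secreted WNT inhibitors and binders 2 rose and none fell. Cthrc1, a matrix protein that in the mouse favours WNT binding to ROR2, was at 5.87 ± 1.42 CPM at 12 months and 2.14 ± 0.858 CPM at 3 months (log2 change 1.45 ± 0.29 SE, adjusted p = 0.00282, edgeR). Frzb, a relative of the secreted Frizzled-related proteins, was at 14.8 ± 3.96 CPM at 12 months and 6.94 ± 1.87 CPM at 3 months (log2 change 1.09 ± 0.24, adjusted p = 0.00509). Serpinf1 passed along the trend, with 0.35 ± 0.11 (adjusted p = 0.0167), and not at 12 months. The median of the list was 0.10.

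Of 18 genes of the beta-catenin destruction complex and Dishevelled 0 rose and 3 fell. Both tankyrases, which mark axin for removal, were among them. Tnks was at 93.7 ± 7.70 CPM at 12 months and 137 ± 6.71 CPM at 3 months (log2 change -0.55 ± 0.07 SE, adjusted p = 0.000103, edgeR), and Tnks2 changed by -0.20 ± 0.05 (adjusted p = 0.00625). Apc, a scaffold of the complex, changed by -0.20 ± 0.06 (adjusted p = 0.0357). The median of the list was -0.02.

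Of 17 TCF/LEF factors and cofactors 3 rose and 2 fell. Tle6, which in the mouse belongs to a complex of the oocyte besides being a Groucho relative, was at 23.3 ± 5.21 CPM at 12 months and 41.6 ± 4.69 CPM at 3 months (log2 change -0.84 ± 0.20 SE, adjusted p = 0.00802, edgeR). Bcl9, a beta-catenin cofactor, changed by 0.47 ± 0.12 (adjusted p = 0.00854) and the corepressor Tle1 by 0.26 ± 0.08 (adjusted p = 0.0329). The remaining calls, named after their values were seen, were Tle3 (0.28 ± 0.09, adjusted p = 0.0323) and Tcf7l2 (-0.28 ± 0.10, adjusted p = 0.0486). The median of the list was -0.08.

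Of 17 genes known as WNT/beta-catenin targets 3 rose and 1 fell. Bambi, a decoy receptor for TGF-beta signals, was at 49.6 ± 9.73 CPM at 12 months and 32.4 ± 3.72 CPM at 3 months (log2 change 0.61 ± 0.12 SE, adjusted p = 0.00311, edgeR), and the adhesion receptor Cd44 at 66.9 ± 18.5 CPM at 12 months and 40.2 ± 6.45 CPM at 3 months (0.74 ± 0.20, adjusted p = 0.0152). Dact1, a Dishevelled-binding protein, changed by -0.68 ± 0.20 (adjusted p = 0.021). Ccnd1, a cyclin also driven by other pathways, changed by 0.32 ± 0.11 (adjusted p = 0.0434). Axin2, the target most used as a readout of beta-catenin, did not pass, with 0.06 ± 0.14 (adjusted p = 0.78). Ccnd1 and Axin2 were named after their values were seen. The median of the list was 0.18.

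Of 23 planar cell polarity and WNT/calcium genes 8 rose and 2 fell. Camk2b, a calcium-dependent kinase subunit, was at 11.7 ± 2.48 CPM at 12 months and 5.38 ± 0.675 CPM at 3 months (log2 change 1.12 ± 0.18 SE, adjusted p = 0.000843, edgeR). Nfatc1, a calcium-regulated transcription factor, changed by 0.74 ± 0.20 (adjusted p = 0.0146), and the polarity gene Prickle1 by -0.40 ± 0.10 (adjusted p = 0.00988). The median of the list was 0.16. Between 12 and 3 months 5 of 10 smooth muscle and pericyte markers and 4 of 8 endothelial markers also rose. So did 8 of 10 B and T lymphocyte and lymph node markers, 3 of 14 oviduct and 4 of 8 macrophage markers. Of ovarian surface epithelium and mesothelium markers 4 of 10 rose, and of fibroblast and stroma markers 2 of 9 rose and 1 fell. The summed lymphocyte and lymph node markers were 365 CPM in replicate 2 at 12 months, a library with Cr2. They were 97.2 to 118 CPM in the other libraries of that age and 66.4 to 81.4 CPM at 3 months. Oocyte markers fell in 11 of 12, theca and interstitial markers in 4 of 7 and granulosa markers in 2 of 11, and 0 of these rose. The part of other cell types in these pathway changes was not tested.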

How the data were processed

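Whole-ovary RNA was sequenced in 19 libraries prepared with a directional kit, per the labels' protocols. The authors deposited estimated counts per gene, labelled raw per the file headers. Whole numbers (within 1e-08) made up 17.4% to 21.4% of a library's nonzero values, and all were rounded to whole numbers before any test. For the aligner and counter nothing is given in the sources used here, so reads shared by close relatives (such as Fzd2 and Fzd7) and by overlapping genes are uncertain. Per the submitters' processing notes, the genome build was mm10. A further 1 column of values matches no sample and was not used. The deposited log2 values were not used here.

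Libraries were grouped by the age label. The 36172 genes were filtered (edgeR's filter, minimum count 10, minimum total 15), which left 15518, and tested with edgeR 4.0.16 (R 4.3.3; robust quasi-likelihood fit with TMM factors and 1 mean for each age, Benjamini-Hochberg, threshold 0.05). Marker tests added the mean log2 CPM of a marker list to that fit. The linear trend had a fit of its own, with age in months as a number in place of the means. Standard errors were taken from the log2 change and its F statistic. CPM use TMM factors, and log2 CPM a prior count of 2. Levels per kilobase use the longest protein-coding transcript of GENCODE. In all 36 pairs of libraries of an age the chi-square per degree of freedom was 5.02 to 38.0, so none was a repeat of another. Alternatives were RLE size factors, DESeq2 1.42.0, limma-voom (limma 3.58.1), other filters, only the ages compared, covariates of marker lists, offsets for length and GC content, an adjusted p under 0.01 and each library left out. The steps were tested on simulated counts. Members and lists were chosen with earlier results of these data known, and every expressed member past the threshold is named, with the 2 most abundant others per role. From each pathway list up to 3 called genes are named, by the smallest p along the trend or at 12 months, or, where none is called, the 2 with the highest mean. Of 238 list entries, 2 had no gene in the table.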

Additional observations from a re-analysis of the deposited data

Results flagged for a closer look

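Of 116 groups of libraries (each expressed member at each age), 5 had a highest library set apart from the rest of its group. The gap to the next library had to exceed 0.71 of the range in groups of 5, or 0.829 in groups of 4. Wnt16 passed only just, at 0.711. Chance alone flags about 1 in 20, and 5 of 116 is not above that rate. Sfrp4 was at 1314 CPM in replicate 1 at 6 months, against 191 to 471 CPM in the others, and the corpus luteum markers were also highest there for that age, at a sum of 1759 CPM. Wnt16 was at 38.2 CPM in replicate 2 at 9 months, against 13.2 to 20.4 CPM, in the library with the highest oviduct sum, 6929 CPM. Sfrp2 was at 58.6 CPM in replicate 2 at 12 months, against 15.6 to 19.7 CPM, and this library is among the 3 with Cr2 above 5 CPM. Fzd4 was at 58.8 CPM in replicate 1 at 9 months, against 41.5 to 44.7 CPM, likewise a library with Cr2. Replicate 2 at 9 months, which held more Cr2, was among the lower ones. The adipocyte marker sum was 2279 CPM in replicate 1 and at most 715 CPM in the other libraries at 9 months. Fzd8 was at 21.7 CPM in replicate 4 at 6 months, against 16.4 to 17.5 CPM. The part of these transcripts in the high values was not tested.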

How the results depend on the processing

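Counts of members called moved most with the oocyte markers as a covariate, which was added after seeing the data. It left 0 members at 12 months, 0 at 9 months and 0 along the trend, in place of 6 each, with 3, 3 and 7 at an unadjusted p under 0.05. Under it the log2 changes of Rspo2 turned to 0.27 at 12 months, 0.54 at 9 months and 0.11 along the trend, that of Wnt16 at 12 months to -0.00552 and that of Rspo3 at 9 months to -0.0828, none of them called. At an adjusted p under 0.01, 3 members stayed at 12 months, 3 along the trend and 1 of the 2 that followed the oocyte markers. At 6 months DESeq2 called 1 and limma-voom 1 where edgeR called 0. For the oviduct markers DESeq2 called 4 members and the fit without the Cr2 libraries 1, in place of 2, and 946 and 249 of all genes, in place of 684. For the oocyte markers limma-voom called 4, and the offsets for length and GC content and the fit without the Cr2 libraries 1 each, in place of 2, and 911, 424 and 73 of all genes, in place of 403. Leaving out each library gave 3 to 8 members at 12 months, 5 to 8 at 9 months, 0 at 6 months, 4 to 7 along the trend, 2 to 3 for the oviduct, 1 to 3 for the oocyte and 3 to 4 for the corpus luteum markers. The low of 3 at 12 months came without replicate 3 at 3 months or replicates 1 or 3 at 12 months, and Fzd3, Rspo2 and Wnt5a were then still called. Over all genes the counts called ran from 2124 to 3806 at 12 months, 2784 to 4484 at 9 months, 0 to 5 at 6 months, 3798 to 4853 along the trend, 493 to 748 for the oviduct, 72 to 1009 for the oocyte and 80 to 259 for the corpus luteum markers. DESeq2 called 47 genes and limma-voom 174 at 6 months, where edgeR called 3.

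Of 716 values of the 25 single-gene calls under alternatives, 616 kept direction and call, 95 kept the direction but lost the call, and the 5 above turned. A further 22 pairs of a gene and a comparison without a call had one in some alternative. A mean CPM cut of 0.5 gave 31 expressed members and a cut of 2 gave 29, and no symbol was shared between member genes. No paired analysis was possible because the labels carry no replicate numbers shared between ages. Depth limits Wnt10a, Fzd10 and the older Rspo2 libraries, where few counts stand behind a value.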
